A study of Mus musculus with 72 samples.

Results

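Histamine synthesis and mast cell genes were represented by 9 genes (Hdc, Cpa3, Mcpt1, Mcpt2, Mcpt4, Cma1, Kit, Fcer1a and Ms4a2) of the 18193 genes in the deposited array table. Each was read from the probe set with the highest mean over all arrays among those that map to 1 gene symbol. All 9 were on the array, and 3 of them (Hdc, Cma1 and Kit) were bright enough to enter the tests, with a mean of at least 2.42 log2 units, which is the 40th percentile over the probe sets. The other 6 were too dim.

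Expression had been measured on 72 Affymetrix arrays of colon RNA, 1 array per mouse, all from wild type Balb/c animals. In 64 of them acute colitis had been set off through the rectum with TNBS (trinitrobenzene sulfonic acid), which haptenates proteins of the gut wall, at 70 µg/g, and tissue was collected on day 4. Ahead of TNBS the colitic mice received nothing (untreated, n = 8), 10 mg/kg of an IgG2a control antibody whose target is human CD20 (n = 15), 0.3 mg/kg of the TNF-binding fusion protein TNFR-Ig (n = 12), the antibody mP2D10 to the TNF family cytokine TWEAK at 10 mg/kg (n = 14), or TNFR-Ig with anti-TWEAK at these doses (combination, n = 15). The study was done as experiments 7 (34 arrays) and 10 (38 arrays), and the 8 naive mice, which received neither TNBS nor an agent, were in experiment 10 alone. Experiment 7 was of 1 array run, except for 2 combination arrays that belonged to the array run of experiment 10. Differences between the experiments therefore cannot be told apart from differences between array runs. TNFR-Ig mice received no control antibody, and 1 naive array carries a second label naming the combination; it was kept as naive, as its title states. RNA came from cuts of rolled, frozen colon, and the colon epithelium genes Epcam, Vil1, Cdx2 and Slc26a3 were at or above 13.4 log2 units on every array.

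Histamine is made from histidine by histidine decarboxylase, the product of Hdc. Mast cells and basophils store it in granules with proteases and release it when IgE bound to the high affinity receptor FceRI is crosslinked, and other myeloid cells, among them neutrophils and macrophages, can induce Hdc in inflammation without storing histamine. Mast cells of the gut mucosa are known for the chymases Mcpt1 and Mcpt2, those of connective tissue for Mcpt4, Cma1 and the carboxypeptidase Cpa3; all depend on the receptor Kit, which is also borne by the interstitial cells of Cajal, the pacemaker cells of gut muscle.

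Most mast cell genes could not be seen in these whole colon samples. The lowest value of the table, 2.08 log2 units, is a floor at which 37.5% of all values lie within 0.1. Ms4a2, the beta chain of FceRI, lay there on 72 of 72 arrays with each of its probe sets. Fcer1a, the IgE-binding alpha chain, lay there on 70 arrays and reached 2.35 on the brightest. The connective tissue chymase Mcpt4 was at the floor on 69 arrays, with a highest value of 2.49. Cpa3 was at the floor on 64 arrays and the mucosal chymase Mcpt1 on 64.

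Mcpt2, the second mucosal chymase, had a bottom of its own: 49 of its 72 values were 2.18, and 63 lay within 0.2 of the floor of the table, a wider margin that was chosen after these values were seen. Cma1 was the brightest of the protease genes, with a mean of 2.90 and 7 arrays at the floor, and 12 of its values shared the level 2.58. Kit was never near the floor and had a mean of 10.38. Hdc spanned almost the whole range, from 2.19 to 11.34. Levels of different genes rest on different probe sets and are not set against each other here; the plot of all members shows for each gene where its own values lie.

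**Figure D1:**
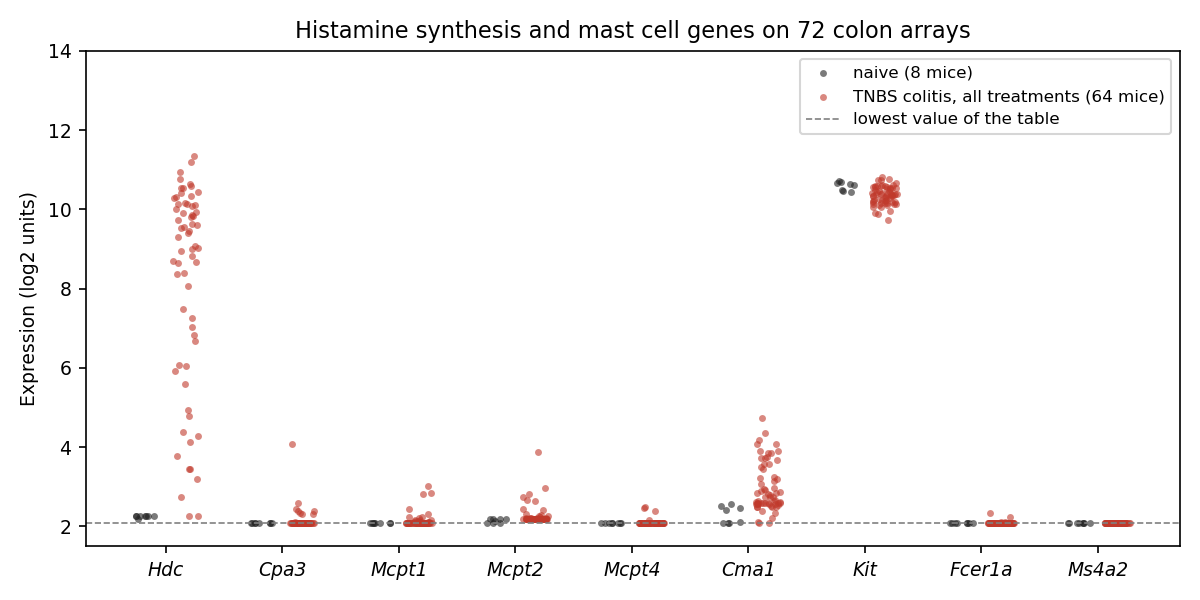
Expression in log2 units of the 9 genes on 72 arrays, naive mice in black (8) and colitic mice of all treatments in red (64), 1 point per mouse. The dashed line is the lowest value of the table, 2.08; Kit lies clear of it on all arrays and Hdc on most colitic arrays, Cma1 lies partly above it, and the other 6 genes stay on or beside it on most arrays.

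The dim genes did rise off the bottom on a few arrays. At least 1 of the 6 was more than 0.2 above the floor on 18 of 72 arrays, of which 0 were naive, 2 untreated, 5 given control antibody, 3 TNFR-Ig, 2 anti-TWEAK and 6 the combination. On 7 arrays at least 2 of the 6 genes were above it, and on 1 array 3 were. That array, the second untreated mouse of experiment 10, had Cpa3 at 4.07, Mcpt4 at 2.49 and Fcer1a at 2.35, together with the highest Cma1 (4.73) and the highest Hdc (11.34) of the series. The tryptase Tpsb2, another mast cell protease, was near the floor on 68 of 72 arrays, and it was highest on this same array at 4.21.

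The remaining arrays with Tpsb2 above the bottom were the eighth TNFR-Ig mouse of experiment 10 (2.58), the first anti-TWEAK mouse of experiment 7 (2.40) and the first TNFR-Ig mouse of experiment 10 (2.37). Cpa3 was above the bottom on each of them as well, at 2.59, 2.32 and 2.43. Of the mucosal chymases, Mcpt1 was more than 0.2 above the floor on 5 arrays and Mcpt2 on 9. Both were in the fourth control antibody mouse of experiment 10 (3.02 and 3.88), in the fifth (2.81 and 2.64), and in the third (2.30 and 2.31) and sixth (2.85 and 2.42) combination mice of that experiment, while Cpa3 was at the floor in all 4. Mcpt2 was above without Mcpt1 on 5 arrays (from 2.43 to 2.98), and Mcpt1 without Mcpt2 on 1, the eighth combination mouse of experiment 10 (2.43). These groupings were noticed in the values and were not tested.

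With the filter on dim genes removed, 0 of the 6 dim genes passed in any of the 8 comparisons of groups by limma with Benjamini-Hochberg adjustment over all 18193 genes; 5 of these 48 tests had an unadjusted p under 0.05. The smallest adjusted p among them was 0.086, for Fcer1a between untreated and naive mice, a comparison in which 34.4% of all genes passed. Mcpt1 passed between the experiments, with experiment 10 higher by 0.11 ± 0.04 (SE; adjusted p = 0.027), where 29.5% of all genes passed. In whole tissue, fewer cells of a type and less RNA per cell cannot be told apart, and a value at the floor gives no level for either.

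The 250 bases before the annotated start of 4 members are printed, so that Hdc can be read beside the others. Sequences are from RefSeq for build GRCm38.p6, which is of strain C57BL/6J, written 5′ to 3′ on the strand of the gene, with each match of GATAA, the core bound by GATA factors, or of its reverse complement TTATC in capitals. The windows are chr2:126618679-126618928, minus strand, for Hdc; chr14:55944676-55944925, minus strand, for Cma1; chr14:56062311-56062560, minus strand, for Mcpt4; and chr5:75574737-75574986, plus strand, for Kit.
Hdc: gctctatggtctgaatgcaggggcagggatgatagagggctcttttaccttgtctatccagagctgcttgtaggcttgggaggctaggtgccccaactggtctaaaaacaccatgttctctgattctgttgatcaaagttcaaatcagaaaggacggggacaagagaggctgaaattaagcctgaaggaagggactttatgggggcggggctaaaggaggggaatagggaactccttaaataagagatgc
Cma1: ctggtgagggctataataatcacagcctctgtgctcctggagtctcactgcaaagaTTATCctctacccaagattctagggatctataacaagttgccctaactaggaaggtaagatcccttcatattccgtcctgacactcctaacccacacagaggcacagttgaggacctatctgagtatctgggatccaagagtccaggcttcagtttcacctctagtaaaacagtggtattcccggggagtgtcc
Mcpt4: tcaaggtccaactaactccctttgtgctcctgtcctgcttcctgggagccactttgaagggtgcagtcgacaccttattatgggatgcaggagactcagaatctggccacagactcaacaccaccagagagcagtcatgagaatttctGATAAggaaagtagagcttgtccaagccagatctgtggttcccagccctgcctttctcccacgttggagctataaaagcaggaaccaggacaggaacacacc
Kit: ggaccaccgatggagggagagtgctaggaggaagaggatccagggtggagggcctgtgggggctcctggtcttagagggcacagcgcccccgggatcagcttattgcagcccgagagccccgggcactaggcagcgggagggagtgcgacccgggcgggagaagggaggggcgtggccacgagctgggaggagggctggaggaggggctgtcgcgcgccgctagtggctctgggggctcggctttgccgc

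The Hdc and Kit windows held no match of GATAA on either strand. Cma1, Mcpt4, Mcpt1, Cpa3 and Fcer1a held 1 match each and Ms4a2 held 3. Of all 32851 promoter windows of this length in the table, 22.6% held at least 1 match and 0.7% at least 3. The Hdc window lies inside the span annotated for the gene (chr2:126593659-126624025), before a start that is not its most upstream end, and Mcpt2 was not matched in the table. A match describes letters and is not a site of binding. Among the printed windows, those of Hdc and Cma1 also hold the uncounted form GATAG or its reverse complement CTATC. The lack of a GATAA match in Hdc is therefore not a lack of GATA sequences.

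Of the members that could be tested, Hdc had the largest log2 difference in colitis. In naive mice its values were 2.19 at the lowest, 2.25 at the median and 2.25 at the highest, the bottom of this probe set. The untreated colitic mice had 6.04, 8.99, 10.30 and 10.54 in experiment 7 and 8.39, 9.62, 11.20 and 11.34 in experiment 10. No untreated colitic mouse overlapped the naive mice; within experiment 10 that held for 24.5% of all genes. In the fit of all groups with a term for the experiment, Hdc was higher in untreated than in naive mice by 6.86 ± 1.04 log2 units (SE; adjusted p = 1.7e-07), 116-fold on this scale, a size that depends on where the naive values bottom out. Within experiment 10, the one that holds naive mice, the difference was 7.89. The other Hdc probe set gave 4.53 ± 1.04 (adjusted p = 0.0003).

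Among treated mice Hdc was lowest under the combination, the treatment whose difference from control antibody passed the test. Mice given control antibody ranged from 4.39 to 10.93 (median 9.52), those given TNFR-Ig from 7.48 to 10.76 (median 9.78) and those given anti-TWEAK from 3.19 to 10.58 (median 9.72). Combination mice ranged from 2.25 to 9.85 with a median of 4.78, so that this group overlapped each of the others. In 8 of 15 combination mice Hdc was below the lowest untreated mouse, against 2 of 15 given control antibody, 4 of 14 given anti-TWEAK and 0 of 12 given TNFR-Ig. Only 2 colitic arrays of the 64 had Hdc at its naive level, and both were combination mice of experiment 10.

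By group mean, the order of Hdc was untreated (9.55 ± 1.75, SD, n = 8), TNFR-Ig (9.47 ± 1.09, n = 12), control antibody (8.87 ± 1.89, n = 15), anti-TWEAK (8.17 ± 2.60, n = 14), combination (5.67 ± 2.81, n = 15) and naive (2.24 ± 0.02, n = 8). Neighbours among the first 4 of these did not differ beyond their spread. TNFR-Ig and untreated mice differed by -0.08 ± 0.92 (SE; adjusted p = 0.98), TNFR-Ig and control antibody by 0.64 ± 0.78 (adjusted p = 0.68), and anti-TWEAK and control antibody by -0.73 ± 0.75 (adjusted p = 0.67). Combination and anti-TWEAK mice overlapped and were not tested against each other. The intervals are wide: for anti-TWEAK against control antibody, the 95% interval ran from -2.22 to 0.77 log2 units.

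**Figure D2:**
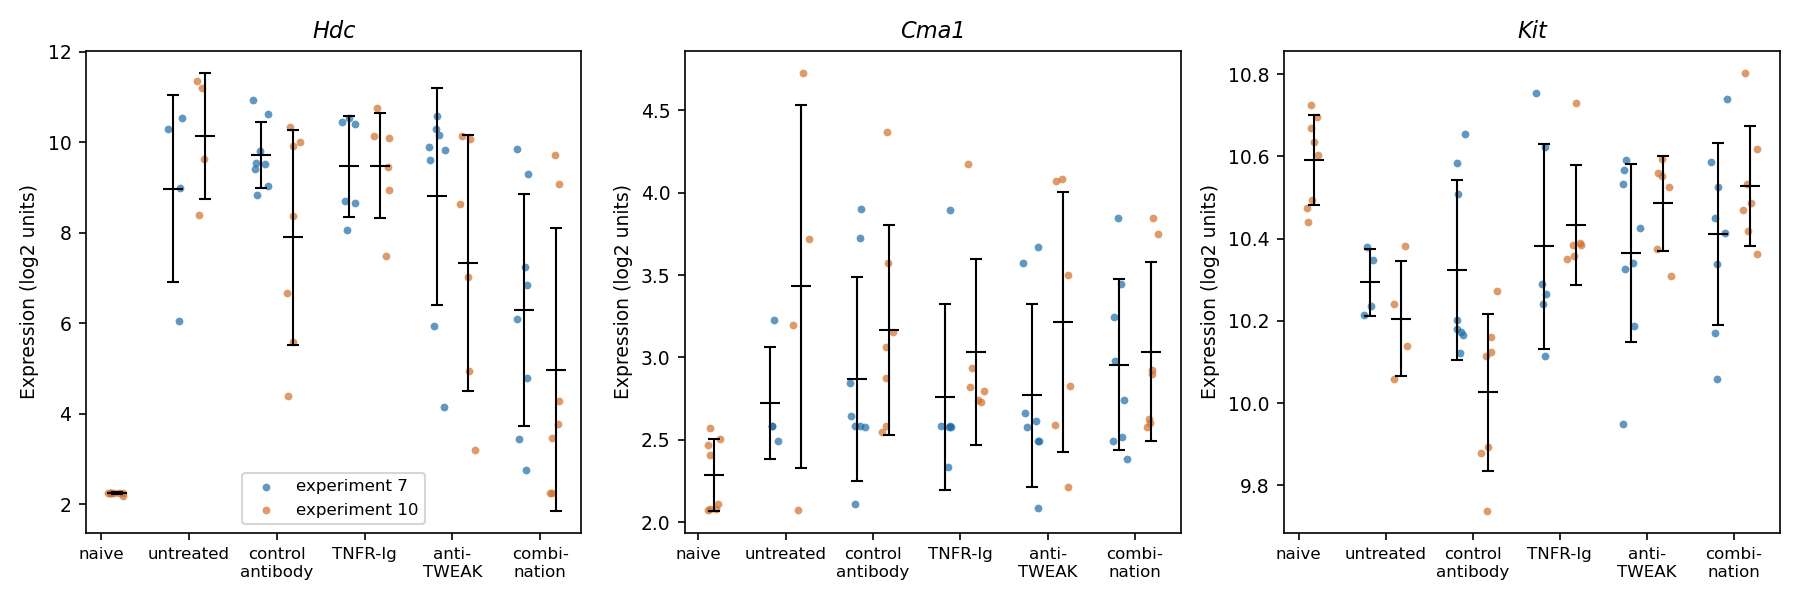
Hdc, Cma1 and Kit in log2 units by group, experiment 7 in blue and experiment 10 in orange, 1 point per mouse, with the mean and SD of each group and experiment in black; axes differ between panels and do not start at 0. Hdc sits at 2.25 in naive mice and is lowest among colitic mice under the combination, Cma1 overlaps between all colitic groups, and Kit of experiment 10 is lowest under control antibody.

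Under the combination Hdc was lower than under control antibody by 3.19 ± 0.73 log2 units on average (log2 difference -3.19, SE 0.73; adjusted p = 0.00095), 9.14-fold. The difference from untreated mice was -3.91 ± 0.88 (adjusted p = 0.00083), 15.0-fold. Hdc stayed above the naive level, by 2.95 ± 0.92 (adjusted p = 0.013). The comparisons share groups, so these values are not independent of each other. The other probe set gave -2.66 ± 0.74 against control antibody (adjusted p = 0.0049) and -3.43 ± 0.89 against untreated mice (adjusted p = 0.0037), but its distance from naive mice, 1.10 ± 0.93, did not pass (adjusted p = 0.41).

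Experiment by experiment, the difference between combination and control antibody was -3.43 ± 1.01 in experiment 7 (adjusted p = 0.013; 19.8% of genes passed) and -2.92 ± 1.08 in experiment 10 (adjusted p = 0.068), and the difference between these, 0.50 ± 1.47, did not pass (adjusted p = 0.95; 0.0319% of genes passed). Against untreated mice it was -2.68 ± 1.23 in experiment 7 (adjusted p = 0.11; 17.6% of genes passed) and -5.16 ± 1.26 in experiment 10 (adjusted p = 0.0035; 16.7%), and the difference between these did not pass (adjusted p = 0.40; 4.82%). Control antibody alone left Hdc at -0.72 ± 0.88 against untreated mice (adjusted p = 0.63).

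Of the 3 members tested, all 3 passed between untreated and naive mice, where 47.8% of all 12534 genes passed, 22.2% higher and 25.6% lower. Hdc and Cma1 were higher and Kit lower. The naive means of Hdc and Cma1 were below the level needed to enter the tests, so both entered through the colitic mice, and this count supports nothing. Between combination and control antibody 2 members passed, Hdc lower and Kit higher, beside 31.2% of all genes (14.2% higher and 17% lower). Between combination and untreated mice 1 passed, Hdc, which was lower (24.6% of all genes, 10.6% lower), and between combination and naive mice 2 passed, Hdc and Cma1, both higher (25.3% of all genes, 13.3% higher). None of the 3 passed for control antibody against untreated mice (10.3% of all genes), TNFR-Ig against control antibody (4.08%), anti-TWEAK against control antibody (2.8%), TNFR-Ig against untreated mice (3.01%) or experiment 10 against experiment 7 (44.5%). In those 5 comparisons, unadjusted p was under 0.05 for Kit under TNFR-Ig (0.0040) and anti-TWEAK (0.0020) against control antibody and for Cma1 between the experiments (0.028). With 3 members tested, these counts say nothing about the members as a group. The treatment effect differed between the experiments for 0 of the 3 by limma's F test (2.19% of all genes).

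**Figure D3:**
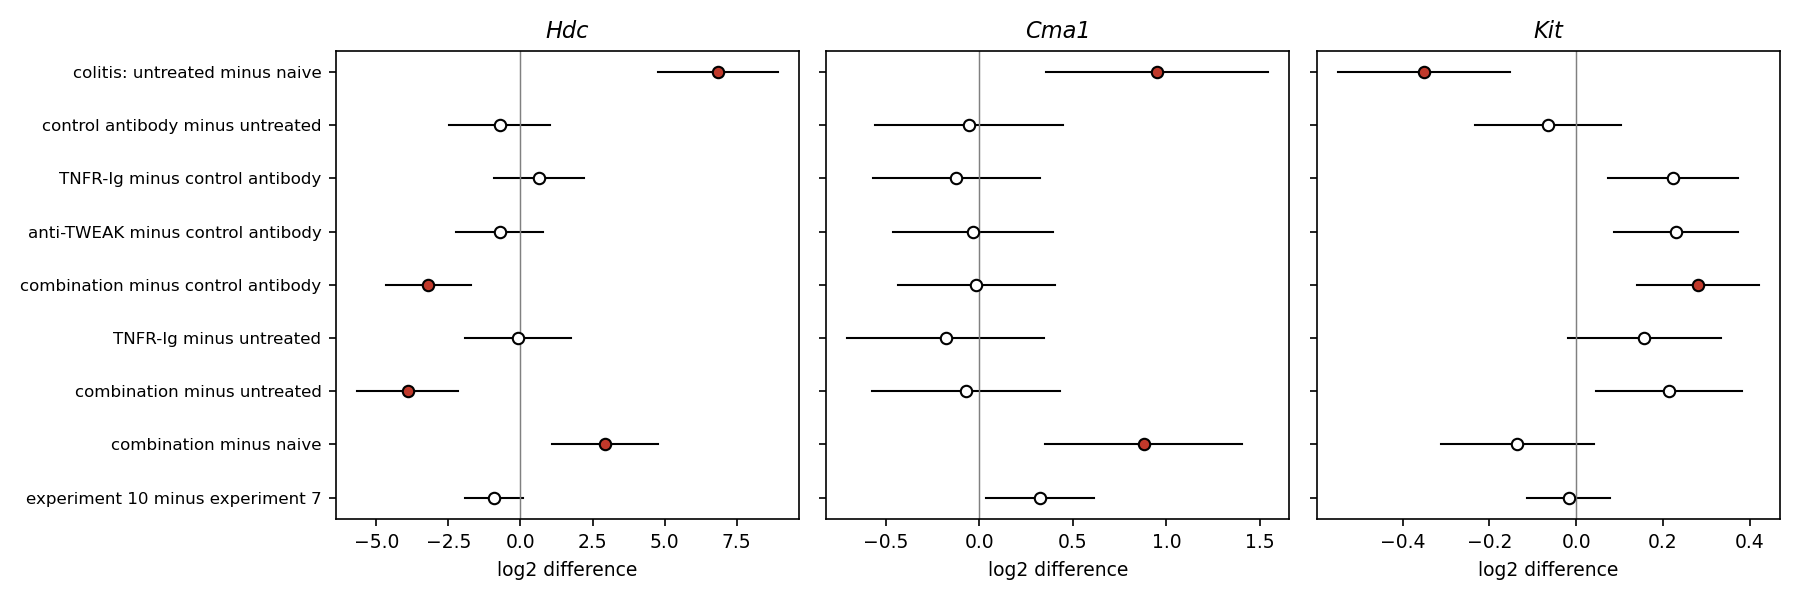
Log2 differences of Hdc, Cma1 and Kit in 9 comparisons from the fit of all 72 arrays, with 95% intervals as lines; filled red points passed at an adjusted p under 0.05 over all genes and open points did not. Hdc is 6.86 higher in untreated than in naive mice and 3.19 lower under the combination than under control antibody, while the Cma1 intervals of the 6 comparisons between colitic groups include 0.

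Cma1, which encodes a chymase of connective tissue mast cells, had a higher mean in untreated than in naive mice. It did not pass in any of the 6 comparisons between colitic groups. Naive mice had values from 2.08 to 2.57 (median 2.26), 4 of 8 of them at the floor. The untreated mice had 2.49, 2.58, 2.58 and 3.23 in experiment 7 and 2.08, 3.20, 3.72 and 4.73 in experiment 10, so the groups overlapped. The experiment 7 values of 2.49, 2.58 and 2.58 lay beside the highest naive value. The difference was 0.95 ± 0.30 (SE; adjusted p = 0.0064), and 1.14 within experiment 10, sizes that depend on where the naive values bottom out. The naive mean was below the level needed to enter the tests, so Cma1 was tested only through its colitic values. Without that filter the adjusted p in limma was 0.0093, where 34.4% of all genes passed. Combination mice were also above naive mice, by 0.88 ± 0.26 (adjusted p = 0.0098).

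All 5 colitic groups had Cma1 at similar means: 3.08 ± 0.85 untreated (SD, n = 8), 3.01 ± 0.62 with control antibody (n = 15), 2.99 ± 0.51 with the combination (n = 15), 2.96 ± 0.68 with anti-TWEAK (n = 14) and 2.90 ± 0.56 with TNFR-Ig (n = 12), against 2.29 ± 0.22 in naive mice. The combination differed from control antibody by -0.02 ± 0.21 (adjusted p = 0.96), with a 95% interval from -0.44 to 0.40. Experiment 10 was higher than experiment 7 by 0.32 ± 0.14, which did not pass (adjusted p = 0.061).

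The genes that varied most like Cma1 from mouse to mouse were looked up after its values were seen. Ranked by Pearson r over the 64 colitic mice, after subtracting the mean of each group in each experiment, the 8 highest genes were Tmprss13 (r = 0.66), Aadacl2fm1, Tmem40, Pkp1, Krt78, Muc15, Rnase2b and Csta1 (r = 0.58). Pkp1 encodes a plakophilin of desmosomes and Krt78 an epithelial keratin. Of a list of 9 further squamous genes, written after these were seen and not tested, 8 were on the array; all 8 (Krt5, Krt13, Krt14, Krt4, Sprr1a, Sprr3, Dsc3 and Trp63) had a positive r with Cma1, from 0.43 to 0.53. The mean level of these 8 genes ran from 6.07 to 8.82 in naive, 5.28 to 9.96 in untreated, 4.50 to 9.91 in control antibody, 4.50 to 9.11 in TNFR-Ig, 5.07 to 9.48 in anti-TWEAK and 4.95 to 9.59 in combination mice. Their part in the Cma1 values was not tested. Among the other mast cell genes, 0 of 10 had a slope on Cma1 that passed in limma, and 0 had an unadjusted p under 0.05 (1.13% of all genes passed upward and 0.128% downward).

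For Cpa3 the same calculation rests on the 8 arrays on which it was above the floor. Its r with Cma1 was 0.41, and the slope did not pass (adjusted p = 0.14). With predicted genes and clone names left out, of which 1 lay among them, the 8 genes of highest r were Tgm1 (0.78), Serpinb8, Ifnz, Il1f5, Sdr9c7, Ccdc177, Lce1h and Krt16 (0.65). Tgm1 and Lce1h are genes of cornified epidermis. These r lean on the second untreated mouse of experiment 10, with Cpa3 at 4.07 and the next array at 2.59. Spearman rho of the 8 ran from 0.21 for Ccdc177 to 0.86 for Sdr9c7, and was 0.32 for Tgm1. No gene of the mast cell list (0 of 10) and none of the neutrophil list (0 of 14) had a slope on Cpa3 that passed in limma, with 0 and 1 at an unadjusted p under 0.05; 0.503% of all genes passed upward and 0.311% downward. The 10 leave out the dim mast cell genes, and dim members such as Mcpt4 and Fcer1a were not tested either. With the filter on dim genes removed, 4 mast cell genes, members included, passed upward on Cpa3. The share over all genes was not computed for that setting.

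Kit fell slightly in colitis. Naive mice had values from 10.44 to 10.72 (median 10.62). The untreated mice had 10.21, 10.24, 10.35 and 10.38 in experiment 7 and 10.06, 10.14, 10.24 and 10.38 in experiment 10, and none of them reached the lowest naive mouse, without overlap in experiment 10 as for Hdc. Within experiment 10 such a lack of overlap held for 24.5% of all genes. The difference was -0.35 ± 0.10 (SE; adjusted p = 0.0027), or 1.28-fold lower. The other Kit probe set fell by 0.81 ± 0.18 (log2 difference -0.81; adjusted p = 0.00021).

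By group mean Kit was highest in naive mice (10.59 ± 0.11, SD, n = 8), then under the combination (10.46 ± 0.19, n = 15), anti-TWEAK (10.42 ± 0.19, n = 14) and TNFR-Ig (10.41 ± 0.20, n = 12), and lowest in untreated mice (10.25 ± 0.12, n = 8) and with control antibody (10.18 ± 0.25, n = 15). Combination and naive mice differed by -0.14 ± 0.09 (adjusted p = 0.26), but with the other Kit probe set by -0.64 ± 0.16, which passed (adjusted p = 0.0021). Control antibody and untreated mice differed by -0.07 ± 0.08 (adjusted p = 0.65). The combination exceeded control antibody by 0.28 ± 0.07 (adjusted p = 0.0021). The same difference was 0.23 ± 0.07 for anti-TWEAK (adjusted p = 0.060) and 0.22 ± 0.07 for TNFR-Ig (adjusted p = 0.070), which did not pass. The TNFR-Ig difference did pass without any 1 of 4 mice of experiment 7 (control antibody mice 3 and 7, TNFR-Ig mice 3 and 5; adjusted p from 0.031 to 0.049). The anti-TWEAK difference passed without any 1 of 5 (control antibody mice 1, 3 and 7, anti-TWEAK mice 2 and 8 of experiment 7; adjusted p from 0.024 to 0.044). With the other Kit probe set, the combination differed from control antibody by 0.15 ± 0.13 (adjusted p = 0.40).

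Kit was then read within each experiment. In experiment 10 control antibody mice had 9.74, 9.88, 9.89, 10.11, 10.12, 10.16 and 10.27, and the values were at or above 10.35 under TNFR-Ig, at or above 10.31 under anti-TWEAK and at or above 10.36 under the combination, so that none of these groups overlapped the control antibody mice. Of all genes 2.78%, 4.61% and 2.4% showed no overlap in these comparisons. The differences within experiment 10 were 0.41 ± 0.10 for TNFR-Ig (adjusted p = 0.0077; 8.86% of genes passed), 0.46 ± 0.10 for anti-TWEAK (adjusted p = 0.0026; 8.64%) and 0.50 ± 0.10 for the combination (adjusted p = 0.00067; 9.69%). In experiment 7 they were 0.06 ± 0.10, 0.04 ± 0.09 and 0.09 ± 0.09 and did not pass (adjusted p from 0.53 to 0.97). The difference between the experiments did not pass in limma either, with adjusted p of 0.39, 0.073 and 0.26, beside 0%, 1.72% and 0.0319% of all genes.

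The 8 genes most like Kit from mouse to mouse included none of the mast cell genes listed. Over the 64 colitic mice the genes with the highest r were Dgkh (0.75), a diacylglycerol kinase, Elapor1, Pm20d1, Ppargc1a, a coactivator of mitochondrial genes, Prkce, a protein kinase C, Rgs17, Hepacam2 and Dixdc1 (0.67). A slope on Kit passed upward for 2 of 10 and downward for 1 of 10 other mast cell genes, where 12.7% and 12.8% of all genes passed. Upward were the secretion GTPase Rab27b (r = 0.62, rank 37 among all genes) and the tryptase Tpsg1 (r = 0.35). Downward was Fcer1g, a chain of FceRI (r = -0.36). Of the genes listed for interstitial cells of Cajal, 1 of 5 passed upward, the chloride channel Ano1 (r = 0.38), and 4 of 5 exocrine pancreas genes passed downward. So did 6 of 13 monocyte and macrophage genes and 1 of 14 neutrophil genes, while 3 of 8 enteroendocrine, 3 of 5 histamine handling, 2 of 8 colon epithelium and 1 of 9 smooth muscle genes passed upward. Muc2 of the colon epithelium list (r = 0.65) and Slc18a1 of the enteroendocrine list (r = 0.56) had a higher r than Ano1. The mean level of the 5 pancreas genes ran from 4.26 to 13.26 under control antibody (median 4.70) and from 4.49 to 13.62 under the combination (median 9.98); their part in the Kit values was not tested.

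From mouse to mouse Hdc followed most neutrophil genes and, with a lower median r, monocyte and macrophage genes. No positive relation with Cma1 or Kit was found. In the 64 colitic mice, with the mean of each group in each experiment removed, a slope on Hdc passed upward in limma for 13 of 14 neutrophil genes and for 12 of 13 monocyte and macrophage genes, beside 15.7% of all 12533 genes. Median r was 0.86 for neutrophil genes and 0.56 for monocyte and macrophage genes, against -0.04 over all genes. Within experiment 7 the median r of neutrophil genes was 0.88 and within experiment 10 it was 0.85. Stfa3, a stefin, was the neutrophil gene that did not pass (r = 0.07). Ngp (0.32), Ltf (0.36) and Asprv1 (0.41) were also low for this list, and Ngp was 0.04 within experiment 10. Among monocyte and macrophage genes r ran from 0.22 for Ccr2 to 0.86 for Arg1. Genes of both lists share arrays and vary together, so they are not independent of each other. Which of these cells carry the Hdc RNA was not tested.

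Cxcr2, the chemokine receptor that brings neutrophils into tissue, had the highest r of the neutrophil list. Its Pearson r with Hdc was 0.958 (Spearman rho 0.966; n = 64; permutation within groups and experiments, two-sided p = 1e-05 for each, the smallest that 100000 permutations can give). It was 0.947 in experiment 7 and 0.973 in experiment 10, and 0.956 without the 2 mice farthest from the median Hdc. Cxcr2 rose by 0.75 ± 0.03 log2 units per unit of Hdc. The calprotectin subunit S100a8 had r = 0.893 and the neutrophil collagenase Mmp8 r = 0.834. The permutation test was run for 39 genes, and the limma slopes were adjusted over all genes.

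The arrays at either end of Hdc are described with group means left in. They were picked by Hdc from the mice that gave this r, so they add no support to it. The 8 colitic mice with the lowest Hdc, from 2.25 to 4.14, had Cxcr2 between 2.08 and 3.97. Of them 6 had received the combination and 2 anti-TWEAK. Among these 8 mice the genes did not keep the same order, with Cxcr2 at 3.97 where Hdc was 3.44 and at 2.08 where Hdc was 4.14. The 8 with the highest Hdc, from 10.5 to 11.3, had Cxcr2 between 8.04 and 9.82 and came from the untreated, control antibody, TNFR-Ig and anti-TWEAK groups. In naive mice, where Hdc was at its bottom, Cxcr2 was near the floor in 6 of 8.

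**Figure D4:**
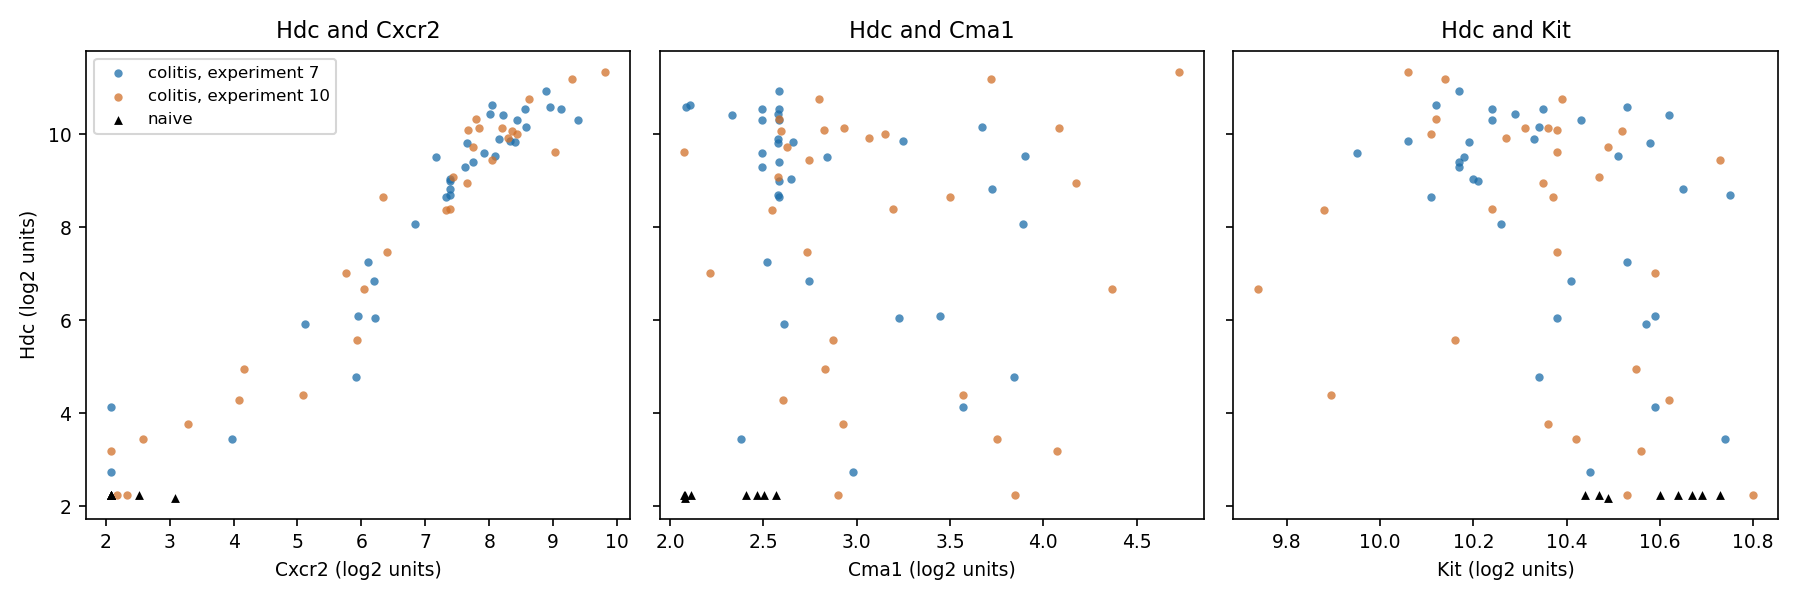
Hdc in log2 units against Cxcr2, Cma1 and Kit, 1 point per mouse, colitic mice of experiment 7 in blue and of experiment 10 in orange, naive mice as black triangles. Hdc rises with Cxcr2 over most of the range but not at its bottom, where colitic mice with Cxcr2 at 2.08 have Hdc from 2.75 to 4.14. Hdc shows no rise with Cma1 or Kit.

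Against Cma1 and Kit, the other 2 members bright enough to test, Hdc had a weak negative r. Both also varied with genes outside the mast cell list, and whether they followed mast cell levels was not tested. The other 6 members were too dim for a relation of Hdc with mast cell levels to be read from them. For Cpa3, at the floor on 64 of 72 arrays, r with Hdc was 0.11 (limma slope, adjusted p = 0.82). For Cma1 it was -0.274 (rho -0.254; n = 64; permutation p = 0.037 and 0.064), and -0.260 without the 2 mice farthest from the median Hdc. For Kit it was -0.290 (rho -0.231; permutation p = 0.023 and 0.072), and -0.267 without those mice. Neither slope passed over all genes (limma, adjusted p = 0.094 and 0.076; 19.9% of all genes passed downward). The Kit slope passed in experiment 7 alone (-0.050 per unit of Hdc, adjusted p = 0.038) and pooled over colitic mice without group terms (-0.029, adjusted p = 0.020), and in experiment 10 alone it was -0.0068 (adjusted p = 0.79). The Cma1 slope did pass without the second untreated or the first anti-TWEAK mouse of experiment 10 (adjusted p = 0.048 and 0.042), and the Kit slope without the first or the fifth control antibody mouse of that experiment (adjusted p = 0.045 and 0.043). Within experiment 7 the values were -0.354 for Cma1 and -0.448 for Kit, and within experiment 10 they were -0.216 and -0.107. Hdc also varied with the mean of the 14 neutrophil genes (r = 0.864), and with that mean held fixed its r was -0.250 with Cma1 and -0.092 with Kit.

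The 8 genes with the highest r with Hdc among all genes were Clec4e (0.971), Srgn, Mcemp1, Cxcr2, Adam8, Stx11, Cxcl3 and Clec4d (0.946). Clec4e and Clec4d encode C-type lectin receptors of myeloid cells, Adam8 a metalloprotease of leukocytes and Cxcl3 a chemokine for neutrophils. Mcemp1 takes its name from mast cells. Srgn encodes serglycin, the proteoglycan core that packs proteases into granules in mast cells and in other blood cells.

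Other genes linked to mast cells went both ways. Of the 25 on a list of further granule, receptor and transcription factor genes, 20 were on the array and 10 were bright enough to test. A slope on Hdc passed upward for 3 of the 10: Srgn (r = 0.965), Fcer1g, the gamma chain that FceRI shares with Fc receptors of macrophages and neutrophils (r = 0.857), and Mitf, a transcription factor of mast cells and other lineages (r = 0.523). It passed downward for 2, the tryptase Tpsg1 (r = -0.500) and the secretion GTPase Rab27b (r = -0.486). Over all genes 15.7% passed upward and 19.9% downward, so the downward count was near that share. The median r of the 10 was -0.04, the same as over all genes.

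**Figure D5:**
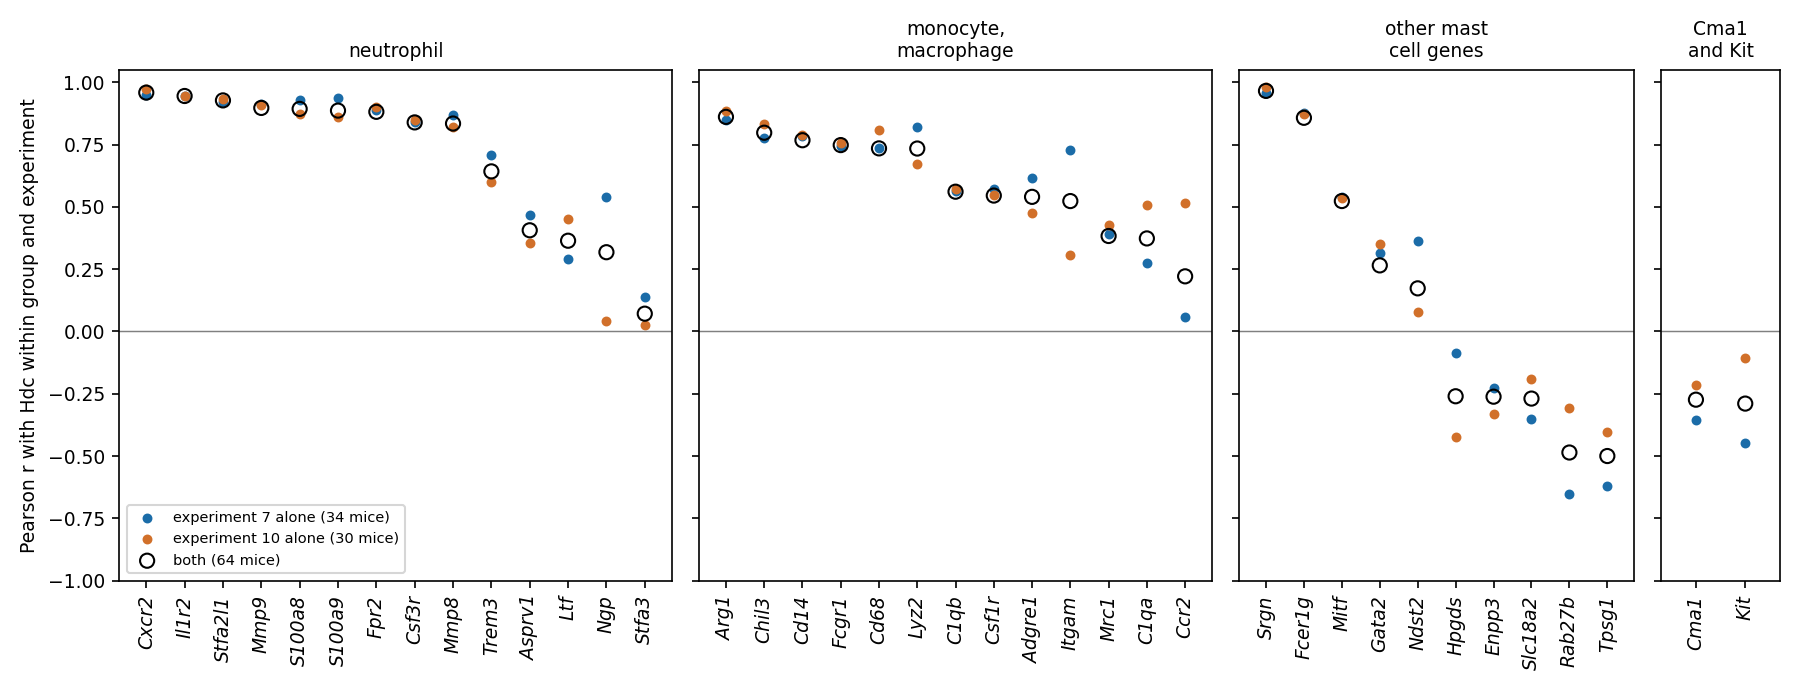
Pearson r with Hdc over colitic mice after the mean of each group in each experiment was removed, for the neutrophil (14), monocyte and macrophage (13) and other mast cell (10) genes bright enough to test and for Cma1 and Kit; open circles use 64 mice and filled points 34 mice of experiment 7 or 30 of experiment 10. Neutrophil genes lie between 0.07 and 0.96, mast cell genes between -0.50 and 0.97, and Cma1 and Kit below 0 in each experiment.

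In the comparisons of groups, neutrophil genes are given beside Hdc as values. Of 18 on the array 4 were too dim to test (Mpo, Elane, Camp and Padi4), and 7 of the 14 tested entered only through the colitic mice, so that a rise in untreated against naive mice was partly fixed by the filter; the 14 differences had a median of 6.38 and all were called. Under the combination against control antibody 8 of 14 fell (median -1.40, over all genes -0.0025; 17% of all genes fell). Cxcr2 itself was 5.82 ± 0.82 higher in untreated than in naive mice (adjusted p = 3.0e-08), a size limited by the floor, near which 6 of 8 naive mice lay, and differed by -2.37 ± 0.58 between combination and control antibody (adjusted p = 0.0017). The mean level of the 14 genes ran from 2.80 to 4.21 in naive, 8.19 to 11.2 in untreated, 6.43 to 10.5 in control antibody and 4.27 to 9.35 in combination mice. Their part in the Hdc differences was not tested. All 13 monocyte and macrophage genes tested rose with colitis (median 1.94), 1 of them having entered through the colitic mice, and 3 of 13 fell under the combination against control antibody.

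Of the other mast cell genes 3 of 10 rose and 4 fell in colitis (median -0.04), beside 22.2% of all genes that rose and 25.6% that fell (median -0.01), shares that also stand behind the lists that follow. Fcer1g rose by 2.56 ± 0.29 (adjusted p = 4.5e-11) and Srgn by 2.38 ± 0.32 (adjusted p = 7.1e-09), while Hpgds, the haematopoietic prostaglandin D synthase, fell by 1.52 (log2 difference -1.52 ± 0.18; adjusted p = 2.1e-10) and Tpsg1 by 0.47 ± 0.19 (adjusted p = 0.032). Slc18a2, the vesicular transporter that loads histamine into granules, fell by 0.30 ± 0.08 (adjusted p = 0.0025). Under the combination against control antibody 3 of the 10 were higher (Enpp3 by 0.56 ± 0.10, Hpgds by 0.40 ± 0.13 and Rab27b by 0.10 ± 0.04) and 2 lower (Srgn by 0.77 ± 0.22, with a log2 difference of -0.77, and Slc18a2 by 0.16 ± 0.06, with -0.16). Of all genes 14.2% were higher and 17% lower in that comparison, so the lower count was near its share.

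Of the listed genes of FceRI signalling, 7 of 8 tested rose with colitis (median 0.80). The 8 include Fcer1g, the gamma chain of the receptor itself, which is also on the mast cell list. The IgE-binding alpha chain and the beta chain were at the floor on most or all arrays. Inpp5d, a phosphatase that restrains signalling in many blood cells, rose by 1.61 ± 0.18 (adjusted p = 5.0e-11) and the kinases Btk and Syk by 0.84 ± 0.17 and 0.81 ± 0.09. All of these are expressed by other leukocytes too. Under the combination against control antibody, Fyn was higher by 0.36 ± 0.07 and Syk differed by -0.25 ± 0.07 (adjusted p = 0.00015 and 0.0042). A slope on Hdc passed upward for 5 of the 8, Fcer1g among them, beside 15.7% of all genes.

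Of the genes that clear, carry or sense histamine, most of those tested fell. Of 5 tested of 10 listed, 4 fell in untreated against naive mice and 0 rose (median -0.44), where 25.6% of all genes fell and the median was -0.01. Hnmt, which methylates histamine, fell by 0.66 ± 0.14 (adjusted p = 0.00012), the receptor Hrh1 by 0.59 ± 0.25 (adjusted p = 0.042) and Aoc1, the diamine oxidase of gut epithelium, by 0.44 ± 0.14 (adjusted p = 0.0066). Under the combination against control antibody, Hnmt was higher by 0.62 ± 0.10 (adjusted p = 1.0e-05) and Aoc1 by 0.27 ± 0.10 (adjusted p = 0.034). Slc18a2, also on this list, was lower, as given above. That made 2 higher and 1 lower of the 5, beside 14.2% and 17% of all genes. From mouse to mouse Aoc1 had r = -0.627 with Hdc. Colon epithelium genes also fell in colitis, 7 of 8 (median -0.16), and their part in the Aoc1 difference was not tested.

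Signals that recruit or feed mast cells were mixed. In untreated against naive mice 2 of 6 tested rose and 3 fell (median -0.01, as over all genes): Cxcr2, which mast cell progenitors share with neutrophils, and Il33, an alarmin for mast cells, rose (2.42 ± 0.34 for Il33; adjusted p = 2.2e-08), and Tslp, the integrin Itgae and the Kit ligand Kitl fell (by 1.49 ± 0.31, 0.95 ± 0.25 and 0.21 ± 0.08). Under the combination Tslp and Itgae were higher than under control antibody by 0.87 ± 0.22 and 0.76 ± 0.18 (adjusted p = 0.0023 and 0.0011), and Cxcr2 was lower, as given above. That made 2 higher and 1 lower of the 6, beside 14.2% and 17% of all genes. Of basophil genes, Mcpt8 was near the floor on all 72 arrays and only the integrin Itga2 was bright enough to test; it did not pass between untreated and naive mice (adjusted p = 0.996).

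Genes of the interstitial cells of Cajal, which bear Kit, fell beside it in colitis for 3 of 5 tested (median -0.24): Cacna1h by 0.87 ± 0.17 (adjusted p = 2.5e-05), Edn3 by 0.54 ± 0.19 (adjusted p = 0.013) and Ano1 by 0.17 ± 0.07 (adjusted p = 0.039). Smooth muscle genes fell in 8 of 9 (median -0.32). Under the combination Ano1 was higher than under control antibody by 0.14 ± 0.05 (adjusted p = 0.021). The part of these cells in the Kit differences was not tested.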

How the data were processed

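RNA of 72 colons, 1 per mouse, was hybridised to Affymetrix arrays. The deposited table holds log2 values normalised by the authors. The submitters' processing notes name RMA and GCRMA, with R 2.11.1 and limma 3.4.5; none of the sources used here says which algorithm made it. Of 45101 probe sets, 34945 map to 1 symbol, and each of 18193 genes took its brightest. Genes whose mean lay under the 40th percentile (2.42) were dropped; 12534 remained. Group and experiment terms were fitted across all genes in limma 3.58.1 (R 4.3.3; moderated, two-sided, Benjamini-Hochberg adjusted over all genes), with calls at an adjusted p under 0.05. Slopes on a gene had a term for each group in each experiment; correlations and their permutation tests were computed in Python 3.11.15. The fits were tested on simulated data. All members are named, with up to 4 called genes of each list by size and the 8 genes of highest r. The 8 for Cma1, the squamous list, other listed genes named and arrays described singly were chosen after values were seen. The members and lists were chosen with earlier results of these data known. Replicates are separate arrays, 1 per mouse, and their number limits the precision.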

Additional observations from a re-analysis of the deposited data

Results flagged for a closer look

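In 16 of 49 sets of values, each of 1 member in 1 group and experiment, the highest array stood far from the others, where chance gives about 1 in 20; many of these sets are otherwise at the floor. For Cpa3 the arrays were replicate 1 of anti-TWEAK (2.32) and of control antibody (2.38) in experiment 7 and untreated replicate 2 of experiment 10 (4.07). For Mcpt2 they were combination replicate 7 (2.65) and TNFR-Ig replicate 1 (2.98) of experiment 7, and anti-TWEAK replicate 8 (2.43), control antibody replicate 4 (3.88) and untreated replicate 1 (2.75) of experiment 10. For Mcpt4 they were combination replicate 6 (2.39) and control antibody replicate 3 (2.47) of experiment 7 and untreated replicate 2 of experiment 10 (2.49), an array that also stood out for Fcer1a (2.35). For Cma1 they were TNFR-Ig replicate 7 (3.89) and untreated replicate 5 (3.23) of experiment 7 and TNFR-Ig replicate 1 of experiment 10 (4.17). For Kit it was TNFR-Ig replicate 8 of experiment 10 (10.73, the next at 10.39).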

How the results depend on the processing

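Counts are of the 3 tested members called, unless stated. Experiment 7 alone called 1 for combination against control antibody (Hdc) and 0 for combination against untreated mice (Hdc -2.68, adjusted p = 0.13). Experiment 10 alone called 1 each for TNFR-Ig and anti-TWEAK against control antibody (Kit), 1 for combination against control antibody (Kit; Hdc had adjusted p = 0.062), 2 for combination against untreated and 1 for combination against naive mice (Cma1 0.75, adjusted p = 0.065). Array weights called 1 for anti-TWEAK against control antibody, 2 for combination against untreated mice, 1 between the experiments and 1 by the interaction test. Anti-TWEAK against control antibody also had 1 (Kit) with weights by group and without the 2 arrays of the other array run. The compared groups alone called 1 for combination against naive mice (Hdc had adjusted p = 0.077). Without the filter on dim genes, where all 9 members were tested, 1 was called between the experiments (Mcpt1). Slopes on Cpa3 then passed for 1 neutrophil and 4 mast cell genes, members included, and the share over all genes was not computed. Pooled over colitic mice 1 mast cell gene passed on Cpa3, without the 2 farthest arrays 1 neutrophil gene, and with Kit as the covariate 2 mast cell genes.

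Signs turned for differences that had not passed. In experiment 7 alone control antibody minus untreated became 0.74 (Hdc), 0.15 (Cma1) and 0.030 (Kit), Hdc became -0.24 for TNFR-Ig minus control antibody and 0.50 for TNFR-Ig minus untreated, and Cma1 became 0.085, 0.036 and 0.23 for combination minus control antibody, TNFR-Ig minus untreated and combination minus untreated. In experiment 10 alone Cma1 became 0.048 for anti-TWEAK minus control antibody. With array weights Cma1 became 0.15, 0.027 and 0.17 for control antibody minus untreated, combination minus control antibody and combination minus untreated, and without the other array run 0.028 for combination minus control antibody. The cause was not tested.

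Leaving out 1 array at a time gave 0 to 1 calls for TNFR-Ig and for anti-TWEAK against control antibody, 1 to 2 for combination against untreated mice (Kit called without untreated replicate 5 of either experiment or combination replicate 1, 2 or 5 of experiment 7), 0 to 1 between the experiments (Cma1) and 0 to 1 neutrophil genes on Cpa3 (1 without untreated replicate 2 of experiment 10). Cma1 ran from -0.22 to 0.16 for control antibody minus untreated, -0.11 to 0.048 for anti-TWEAK minus control antibody, -0.089 to 0.070 for combination minus control antibody, -0.35 to 0.036 for TNFR-Ig minus untreated and -0.24 to 0.14 for combination minus untreated, and Hdc from -0.66 to 0.25 for TNFR-Ig minus untreated.

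Replicate numbers did not pair the arrays: same-numbered arrays of an experiment had a median r of -0.005 over 132 pairs and others 0.007 over 921. With the replicate block the counts between groups were as before (3 in colitis, 2 for combination against control antibody, 1 against untreated, 2 against naive mice), 11 neutrophil genes followed Hdc, and the Cma1 slope on Hdc passed (-0.17, adjusted p = 0.0018). Under the replicate block Cma1 became 0.019 for combination minus control antibody and 0.017 for combination minus untreated, and Hdc 0.41 for TNFR-Ig minus untreated. Values at the floor limit the 6 dim members under every setting.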
